A study of Homo sapiens with 6 samples.

Results

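The Polycomb repressive complex genes were 10 genes taken by name from the 25528 gene symbols of an RNA-seq series, with no measured value used in choosing them. They were EZH2, EZH1, EED, SUZ12, JARID2 and MTF2, which encode subunits of Polycomb repressive complex 2 (PRC2), and RNF2, RING1, BMI1 and CBX8, which encode subunits of Polycomb repressive complex 1 (PRC1). The series compared DU-145 cells, an established line of castration-resistant prostate cancer, that carry a tetracycline-inducible shRNA against the long non-coding RNA XIST (DU-145/tet-XISTshRNA). The vehicle group (3 samples) received 0.1% DMSO, and the DOX group (3 samples) received doxycycline at 500 ng/ml, for 7 days. All 6 samples carry the shRNA vector and were selected for it with puromycin or geneticin. No sample with a control shRNA and DOX belongs to this comparison, so an effect of DOX itself and an effect of the shRNA cannot be told apart. XIST was listed at 0 in all 6 samples, and the files therefore do not show whether the shRNA acted.

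PRC2 places methyl groups on lysine 27 of histone H3, a mark of silent genes. EZH2 and its paralog EZH1 are the alternative catalytic subunits, EED reads the methylated histone and SUZ12 holds the core together, so that EZH2 or EZH1 works only in a complex with EED and SUZ12. JARID2 and MTF2 belong to different accessory forms of PRC2 that help to bring it to chromatin. PRC1 places ubiquitin on histone H2A through the E3 ligases RING1 and RNF2 (also called RING1A and RING1B), which pair with a PCGF protein such as BMI1, and CBX8 is one of the chromodomain subunits that read methylated lysine 27. Polycomb complexes are recruited to the inactive X chromosome after XIST is expressed, and EZH2 is often highly expressed in advanced prostate cancer.

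To show the start regions of the genes of the PRC2 core, the 250 bases before the RefSeq start of EZH2, SUZ12 and EED are printed 5′ to 3′ on the strand of the gene, from RefSeq on GRCh38.p14. They lie at chr7:148884292-148884541 (minus strand), chr17:31936757-31937006 (plus strand) and chr11:86244503-86244752 (plus strand). Capitals mark CCAAT, the letters of the CCAAT box, or ATTGG, the same letters on the other strand.
EZH2: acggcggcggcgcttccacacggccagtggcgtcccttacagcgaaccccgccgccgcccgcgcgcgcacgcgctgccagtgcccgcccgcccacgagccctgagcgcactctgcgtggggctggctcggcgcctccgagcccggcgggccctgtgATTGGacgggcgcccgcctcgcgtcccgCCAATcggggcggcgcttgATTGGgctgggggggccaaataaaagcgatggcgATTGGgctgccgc
SUZ12: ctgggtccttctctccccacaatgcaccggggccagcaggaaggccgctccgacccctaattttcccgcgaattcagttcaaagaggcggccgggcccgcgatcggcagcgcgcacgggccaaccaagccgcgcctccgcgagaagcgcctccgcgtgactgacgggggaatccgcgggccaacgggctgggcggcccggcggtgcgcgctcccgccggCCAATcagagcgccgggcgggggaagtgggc
EED: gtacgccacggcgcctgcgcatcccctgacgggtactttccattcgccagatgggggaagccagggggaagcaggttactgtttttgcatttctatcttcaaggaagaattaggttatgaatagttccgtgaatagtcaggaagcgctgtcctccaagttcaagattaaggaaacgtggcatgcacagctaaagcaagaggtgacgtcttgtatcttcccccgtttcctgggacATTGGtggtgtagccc
The EZH2 and SUZ12 windows had 75.6% and 72.8% G and C with 38 and 34 CpG dinucleotides, whereas the EED window had 51.2% and 11. The median of 27305 RefSeq promoters of the same length was 58% with 11 CpG. CCAAT on either strand was in the windows of EZH2, SUZ12, EED and JARID2, which is 4 of the 9 members matched, and in 33.0% of all promoters. The EZH2 window held it 4 times, which 0.930% of all promoters did at least. The 9-letter GC box GGGGCGGGG, searched on both strands, was found for EZH1 alone of the matched members and in 15.4% of all promoters. TTTCGCGC or TTTGGCGC, letters of a site for E2F factors searched on both strands, was in the windows of 0 of the 9 members and in 0.996% of all promoters. These matches describe letters in the windows and are not evidence of binding. CBX8 was not matched in the promoter table.

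The values are TPM (transcripts per 1000000), which divide the reads of a gene by its length and set the total of each sample to 1000000, so that the TPM of every gene depends on all other RNAs of the sample. Between 5453891 and 64573563 reads per sample were counted on genes, as recovered from the deposited values, with the fewest in vehicle replicate 3 and the most in DOX replicate 1. Small non-coding RNAs (RN7SL1, RN7SL2, RN7SL3, RN7SK and RPPH1) held 67.5% of the TPM in vehicle replicate 3, 82.6% in DOX replicate 1 and between 74.6% and 77.4% in the other samples. Levels were therefore also given after median-of-ratios scaling, which divides each sample by the median over genes of its ratio to the geometric mean over samples. The epithelial markers EPCAM, KRT8 and KRT18 were at 8.57 TPM or more in every sample. The prostate marker KLK3 was listed at 0 in all 6 samples. Of the markers of other cell types, CD3E, COL1A2 and DCN were listed at 0 and COL1A1 reached 0.616 TPM. EIF4A1, which encodes a general translation initiation factor, was also listed at 0 in all 6 samples. A listed 0 therefore does not by itself show that an RNA was absent. In bulk RNA, fewer cells of a type and less RNA per cell cannot be told apart.

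None of the Polycomb members passed the test for a difference between DOX and vehicle. Mean expression was at least 1 TPM for 8 of the 10 members, which were tested with limma on log2(TPM + 1), whereas BMI1 and CBX8 lay under this minimum. Calls required an adjusted p under 0.05 together with a fold change over 1.5. Of the 8 tested members, 0 were called lower, where 2.98% of the 11672 genes tested were, and 0 were called higher, where 0.0257% were. At an unadjusted p under 0.05 and the same fold change, SUZ12 and MTF2 passed (2 of 8), and 19.0% of all genes were lower by this rule. All 8 log2 fold changes were below 0, with a median of -0.48, and the median over all genes was -0.35. With median-of-ratios scaling, all genes had a median of 0.017 and the members one of -0.075, and 6 of the 8 were below 0. On that scale, 0 of the 8 were called lower or higher and 0 passed at an unadjusted p, beside 0% of all genes called either way, 1.15% lower and 1.18% higher at an unadjusted p.

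**Figure D1:**
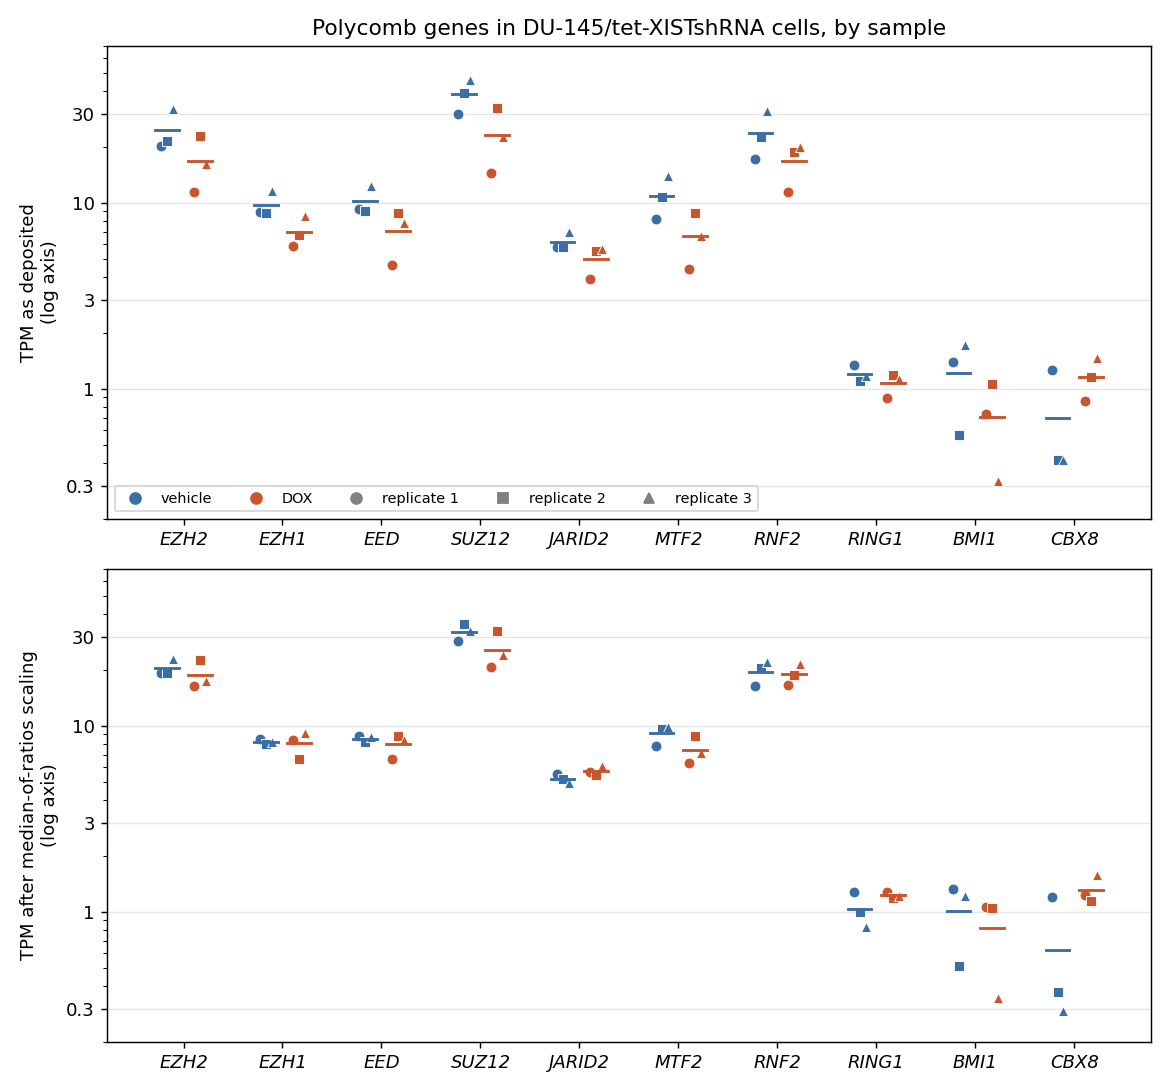
TPM of the 10 Polycomb members in each sample on a log axis, as deposited (top) and after median-of-ratios scaling (bottom); circles, squares and triangles are replicates 1, 2 and 3, and horizontal lines are group means. DOX replicate 1 had the lowest median-of-ratios factor of the samples (0.694). On the deposited scale it was the lowest sample for all 8 tested members, and after scaling for 4 of the 8. After scaling the groups of all 10 members overlapped.

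SUZ12 had the highest level of the members and the most negative fold change. Its level was 30.2, 39.1 and 46.1 TPM in vehicle replicates 1, 2 and 3, and 14.4, 32.5 and 22.6 TPM in DOX replicates 1, 2 and 3. DOX replicate 2 lay within the vehicle range and the other DOX samples lay below it. Vehicle samples averaged 38.4 ± 7.97 TPM and DOX samples 23.2 ± 9.03 TPM (SD, n = 3 each). The log2 fold change of SUZ12 was -0.76 (standard error 0.29, 95% interval -1.34 to -0.18), with an adjusted p = 0.0899 from limma. After median-of-ratios scaling SUZ12 was at 32.2 ± 3.28 and 25.8 ± 5.89 TPM (SD, n = 3 each), a log2 fold change of -0.33 (95% interval -0.70 to 0.041, adjusted p = 0.343 from limma). Each DOX sample was then lower than the vehicle sample of the same replicate number (28.7 against 20.8, 35.2 against 32.3 and 32.6 against 24.2 scaled TPM).

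EZH2, the main methyltransferase of PRC2 in dividing cells, was at 20.3, 21.5 and 32.2 TPM in vehicle replicates 1, 2 and 3. With DOX it was at 11.4, 22.8 and 16.3 TPM. The groups overlapped, since DOX replicate 2 was above 2 of the 3 vehicle samples. The means were 24.7 ± 6.56 and 16.8 ± 5.70 TPM (SD, n = 3 each), and the log2 fold change was -0.55 (standard error 0.28, 95% interval -1.11 to 0.016, adjusted p = 0.179 from limma). After median-of-ratios scaling vehicle samples averaged 20.5 ± 2.01 TPM of EZH2 and DOX samples 18.9 ± 3.31 TPM (SD, n = 3 each), a log2 fold change of -0.12 (95% interval -0.45 to 0.21). This interval leaves room for a decrease of EZH2 as well as for an increase.

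EZH1, the paralog with the weaker activity, and EED did not overlap between the groups on the TPM scale. EZH1 was at 8.93, 8.83 and 11.6 TPM with vehicle and at 5.86, 6.68 and 8.49 TPM with DOX. EED was at 9.25, 9.06 and 12.3 TPM with vehicle and at 4.61, 8.88 and 7.81 TPM with DOX. Every DOX sample was below every vehicle sample for EZH1, EED and JARID2, which is 3 of the 8 tested members, and for 30.7% of all genes tested. Their adjusted p-values from limma were 0.215 for EZH1 (log2 fold change -0.43, standard error 0.24) and 0.179 for EED (-0.50, standard error 0.25). After median-of-ratios scaling the groups of all 8 tested members overlapped, where 9.15% of all genes were without overlap and lower and 10.9% were without overlap and higher. The scaled log2 fold changes were -0.034 (95% interval -0.34 to 0.27) for EZH1 and -0.10 (95% interval -0.40 to 0.20) for EED.

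Of the accessory subunits, MTF2 had a more negative fold change than JARID2. MTF2, the Polycomb-like protein that binds unmethylated CpG-rich DNA, was at 8.23, 10.7 and 13.9 TPM with vehicle and at 4.41, 8.85 and 6.65 TPM with DOX. The log2 fold change of MTF2 was -0.66 (standard error 0.26, 95% interval -1.18 to -0.14, adjusted p = 0.0975 from limma). The groups overlapped, since DOX replicate 2 was above vehicle replicate 1. After median-of-ratios scaling MTF2 had a log2 fold change of -0.27 (95% interval -0.60 to 0.065, adjusted p = 0.379 from limma). JARID2, a DNA-binding relative of histone demethylases that has lost the enzymatic activity, was at 5.77, 5.77 and 6.96 TPM with vehicle and at 3.90, 5.49 and 5.66 TPM with DOX. Its log2 fold change of -0.26 (standard error 0.23, adjusted p = 0.414 from limma) was closer to 0 than the median of all genes. JARID2 changed sign with the scaling, to 0.11 (95% interval -0.15 to 0.38), with 5.21 ± 0.278 and 5.72 ± 0.322 scaled TPM (SD, n = 3 each).

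The E3 ligases of PRC1 were measured at very different TPM. RNF2 was at 17.3, 22.7 and 31.1 TPM with vehicle and at 11.5, 18.9 and 20.1 TPM with DOX. The groups overlapped, and its log2 fold change was -0.47 (standard error 0.28, 95% interval -1.03 to 0.089, adjusted p = 0.234 from limma). After scaling, RNF2 averaged 19.6 ± 2.86 TPM in vehicle samples and 18.95 ± 2.52 TPM in DOX samples (SD, n = 3 each), a log2 fold change of -0.047 (95% interval -0.38 to 0.28). RING1 was at 1.34, 1.10 and 1.17 TPM with vehicle and at 0.892, 1.19 and 1.13 TPM with DOX. Its log2 fold change, -0.091 (standard error 0.18, adjusted p = 0.719 from limma), was the closest to 0 of the 8 and became 0.14 after scaling (95% interval -0.16 to 0.44). At such low TPM the added 1 shrinks a fold change, and with a pseudocount of 0.1 RING1 had -0.16 (adjusted p = 0.723 from limma).

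BMI1 and CBX8 had few reads. BMI1, the PCGF subunit first known as an oncogene, was at 1.39, 0.565 and 1.72 TPM with vehicle, from 107, 48 and 31 reads. With DOX, BMI1 was at 0.733, 1.06 and 0.319 TPM, from 340, 96 and 29 reads. The difference of -0.37 in mean log2(TPM + 1) did not pass a two-sided exact permutation test (p = 0.3), which cannot go below 0.1 with 3 samples against 3. Of the exonic bases of BMI1, 1000 (22.8%) are shared on the same strand with the read-through gene COMMD3-BMI1, which was listed at 0 in all 6 samples, so how shared reads were counted bears on the level of BMI1. CBX8 was at 1.27, 0.413 and 0.415 TPM with vehicle, from 39, 14 and 3 reads, and at 0.858, 1.15 and 1.46 TPM with DOX, from 159, 42 and 53 reads. Vehicle replicate 1 of CBX8 lay within the DOX range and the other vehicle samples lay below it, and the difference was 0.37 (p = 0.3, exact permutation test). CBX8 was the only member with a higher mean TPM in DOX on the deposited scale. After median-of-ratios scaling CBX8 averaged 0.623 ± 0.504 TPM in vehicle samples and 1.32 ± 0.223 TPM in DOX samples (SD, n = 3 each). The scaled difference was 0.55 in mean log2(TPM + 1) (p = 0.2, exact permutation test). For BMI1 the scaled difference was -0.15 (p = 0.5, exact permutation test). CBX8 reached the minimum of 1 TPM only when vehicle replicate 2 or 3, its low samples, was left out, so no limma value is given for it.

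**Figure D2:**
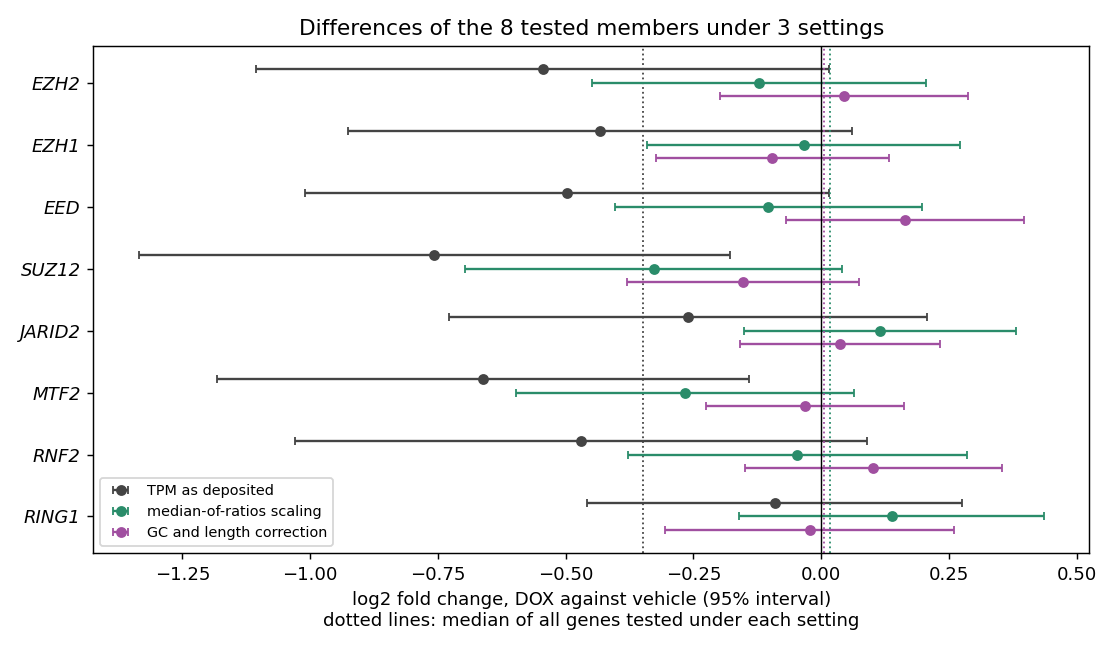
log2 fold change of DOX against vehicle with its 95% interval (x axis) for the 8 tested members (y axis), from limma on deposited TPM, after median-of-ratios scaling, and after correction for GC content and gene length; dotted lines are the medians of all genes tested. All 8 points lay below 0 on the TPM scale, where the median of all genes was -0.35, and every interval covered 0 after either adjustment.

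When the replicate number was a block, 2 of the 8 members were called lower on the TPM scale. These were SUZ12 (adjusted p = 0.00215 from limma) and MTF2 (adjusted p = 0.00614 from limma). In the same fit 19.0% of all genes were called lower and 0.129% higher. EZH2 and EED also had adjusted p-values under 0.05 (0.0260 and 0.0391, limma with the block) at a fold change under 1.5, so that 4 of the 8 members passed without the fold limit, as did 34.0% of all genes on the lower side. With the block and median-of-ratios scaling, 0 of the 8 members and 0% of all genes were called lower, and SUZ12 had an adjusted p = 0.0941 from limma. In limma voom on the recovered reads with the block, 0 of the 8 members were called, with 2.34% of all genes called lower and 1.38% higher. SUZ12 was the only member of the 8 with an adjusted p under 0.05 in this fit (log2 fold change -0.34, adjusted p = 0.0420), where 8.58% of all genes were lower without the fold limit. Without DOX replicate 2, EZH2, SUZ12 and MTF2 were called lower on the TPM scale (3 of 8), as were 20.3% of all genes, with log2 fold changes of -0.78, -1.03 and -0.87. Without DOX replicate 1 the log2 fold changes were closer to 0, at -0.31 for EZH2, -0.47 for SUZ12, -0.43 for MTF2, -0.25 for EED, -0.23 for RNF2 and -0.12 for JARID2. In that fit 0 of the 8 members were called, beside 1.09% of all genes called lower and 0.102% called higher. Without vehicle replicate 3, EZH2 was at -0.34 and RNF2 at -0.26.

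The members' fold changes lay close to the medians of genes with a like base composition. Over 10850 genes with an annotation, the log2 fold change on the TPM scale rose with the GC content of the exons (Spearman's rho 0.72 across genes, which are not independent replicates and share the same 6 libraries), and over the 8 members rho was 0.69. EED, MTF2, RNF2 and SUZ12 had exons with 36.4%, 37.0%, 38.0% and 38.4% G and C, and the 1930 genes at or under 40% had a median log2 fold change of -0.63. In this group SUZ12 (-0.76) and MTF2 (-0.66) lay below the median, and EED (-0.50) and RNF2 (-0.47) lay above it. EZH2 (40.3% G and C) had -0.55 beside a median of -0.48 for genes of 40% to 45%, and EZH1 (49.1%) had -0.43 beside -0.35 for genes of 45% to 50%. JARID2 (50.7%) had -0.26 beside -0.24, and RING1, with the most GC-rich exons of the members (61.2%), had -0.091 beside -0.086 for genes over 60%. When each sample was corrected for GC content and exonic length, the log2 fold changes of the 8 members lay between -0.15 (SUZ12) and 0.16 (EED) with 4 of 8 below 0. The members' median was then 0.0072, that of all genes was 0.0050, and 0 members and 0% of all genes were called lower. The part of base composition in these differences was not tested beyond this correction.

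**Figure D3:**
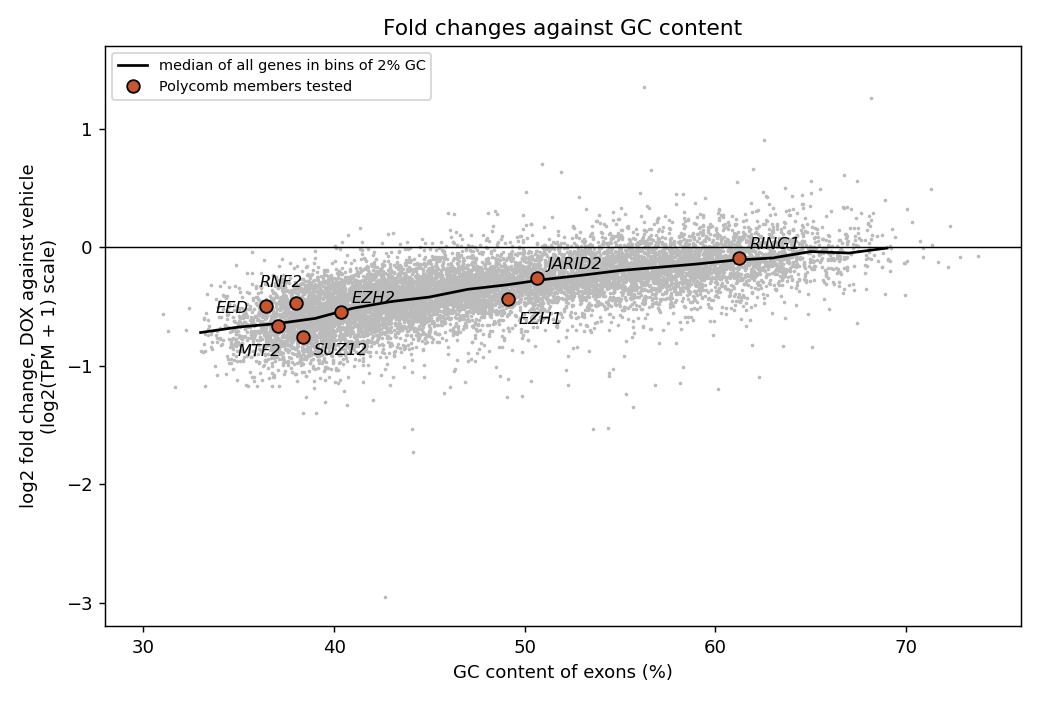
log2 fold change of DOX against vehicle (y axis, TPM scale) against the GC content of the exons in percent (x axis) for the genes tested, with the 8 tested Polycomb members in orange and the median of all genes in bins of GC content as a line. The members lay along the line, from EED, MTF2, RNF2 and SUZ12 at the AT-rich end to RING1 at the GC-rich end.

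The members lie on 6 chromosomes in GENCODE release 44 on GRCh38, and each is a protein-coding gene. The PRC2 core genes are EZH2 (chr7:148807257-148884321), EZH1 (chr17:42700275-42745049), EED (chr11:86201212-86278813) and SUZ12 (chr17:31937007-32001038). JARID2 is at chr6:15246069-15522042 and MTF2 at chr1:93079235-93139079. The PRC1 genes are RNF2 (chr1:185045526-185102603), RING1 (chr6:33208500-33212722), BMI1 (chr10:22321099-22331484) and CBX8 (chr17:79792132-79801683). EZH2, EZH1 and CBX8 are on the minus strand and the other members on the plus strand. EED shares 3.16% of its exonic bases with a long non-coding RNA gene on the opposite strand.

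Per length, SUZ12 had the highest level of the members, with a mean of 29.0 TPM over the 6 samples after median-of-ratios scaling. EZH2 (19.7) and RNF2 (19.3) followed, then MTF2 (8.27), EED (8.26) and EZH1 (8.15), then JARID2 (5.46), and RING1 (1.13), CBX8 (0.971) and BMI1 (0.915) came last. The ranges over the 6 samples did not overlap between RNF2 and MTF2, between EZH1 and JARID2 and between JARID2 and RING1. All other neighbours in this order overlapped, although SUZ12 was above EZH2 within each of the 6 samples. The order depends on the gene lengths behind the TPM. Reads and TPM together gave a length of 15388 bases for RING1, 8.49 times the 1813 exonic bases of GENCODE, and a length for EZH2 that was 0.387 times its 10774 exonic bases. RING1 lies in the extended major histocompatibility region, where 78 protein-coding genes between HLA-F and DAXX had a median of 6.82 times, against 0.996 times for 11356 other protein-coding genes. With the exonic lengths of GENCODE, RING1 moved from 8th to 3rd and EZH2 from 2nd to 7th of the 10, and SUZ12 remained first. The reads were counted on the authors' gene models, so the order by GENCODE length need not be closer to the true order. A length that is the same in all samples leaves the ratio of DOX to vehicle TPM as it is. Fold changes of log2(TPM + 1) shrink at low TPM, so that of RING1 also depends on this length. With a pseudocount of 0.1 RING1 had a log2 fold change of -0.16.

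Ratios within a sample do not depend on the scaling, and 6 of them were compared to ask whether the make-up of the complexes differed between the groups. None passed an exact two-sided permutation test, in which 0.1 is the smallest p that 3 samples against 3 can give. EZH2/SUZ12 was 0.672, 0.549 and 0.699 with vehicle and 0.793, 0.702 and 0.721 with DOX, so every DOX sample was above every vehicle sample (log2 difference 0.21, exact permutation p = 0.1, adjusted over the 6 ratios p = 0.4). SUZ12/EED was lower in DOX in 3 of 3 samples paired by number, at 3.26, 4.31 and 3.74 with vehicle and 3.13, 3.66 and 2.89 with DOX (log2 difference -0.22, exact permutation p = 0.2, adjusted p = 0.4). MTF2/JARID2 was also lower in 3 of 3 pairs, at 1.43, 1.86 and 2.00 with vehicle and 1.13, 1.61 and 1.18 with DOX (log2 difference -0.44, exact permutation p = 0.2, adjusted p = 0.4). After correction for GC content and length the log2 differences were 0.19 for EZH2/SUZ12 (exact permutation p = 0.1), -0.29 for SUZ12/EED (exact permutation p = 0.2) and -0.11 for MTF2/JARID2 (exact permutation p = 0.5). Of the 3, the difference of MTF2/JARID2, whose transcripts hold 37.0% and 50.7% G and C, moved the most.

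The ratios of the paralogs overlapped between the groups. With 0.1 as the smallest p, the exact permutation test could not have shown a difference in them. EZH2/EZH1 was 2.27, 2.43 and 2.77 with vehicle and 1.95, 3.41 and 1.92 with DOX (log2 difference -0.088, exact permutation p = 0.8). DOX replicate 2 gave the highest EZH2/EZH1 of the 6 samples and the other DOX samples gave the lowest. RNF2/RING1 was 12.9, 20.6 and 26.7 with vehicle and 12.9, 15.9 and 17.7 with DOX (log2 difference -0.32, exact permutation p = 0.5). The differences of EZH2/EZH1 and RNF2/RING1 changed sign after correction for GC content and length. With GENCODE lengths RNF2/RING1 lay between 1.92 and 3.98 and EZH2/EZH1 between 0.775 and 1.38 over the 6 samples. By these lengths the lead of RNF2 was smaller, and EZH2 was above EZH1 in some samples and below it in others. The reads were counted on the authors' gene models, and the length behind the TPM of EZH2 was 0.387 times that of GENCODE. Ratios by GENCODE length therefore need not be closer to the true ones than those by TPM. BMI1/PCGF2, which sets 2 PCGF paralogs against each other, was 0.160, 0.0793 and 0.156 with vehicle and 0.107, 0.140 and 0.0431 with DOX (log2 difference -0.54, exact permutation p = 0.5), so PCGF2 had more TPM than BMI1 in all 6 samples. BMI1 had few reads, and how reads shared with COMMD3-BMI1 were counted bears on this ratio as well.

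**Figure D4:**
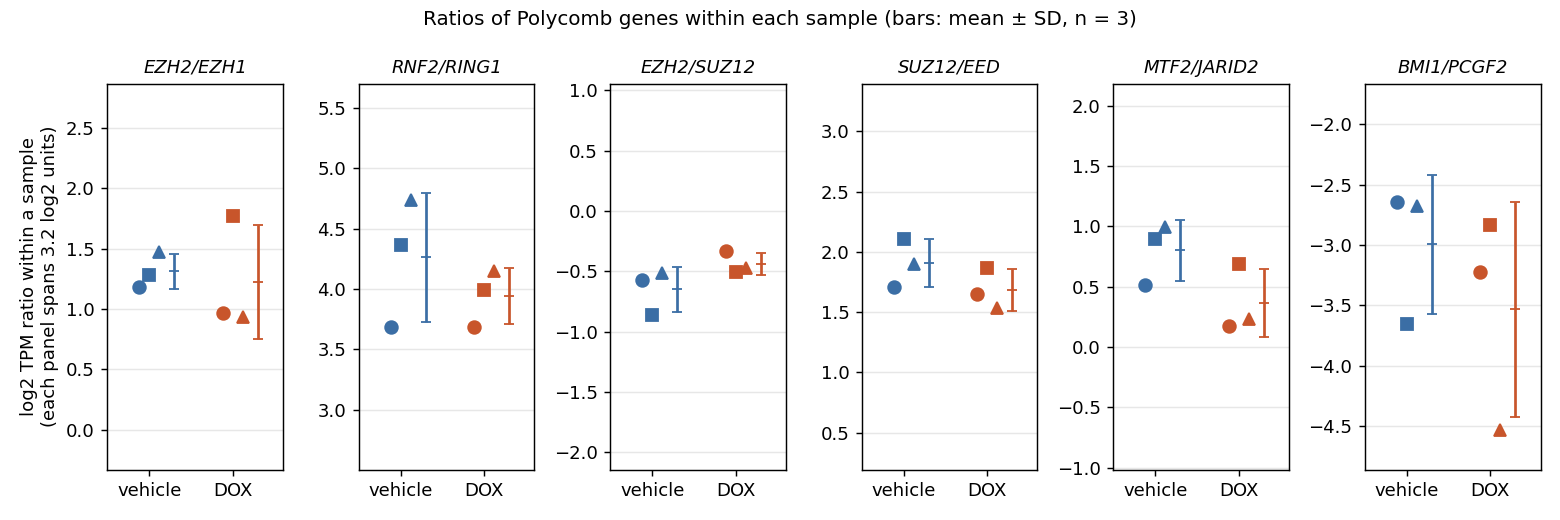
log2 of the TPM ratio of 2 Polycomb genes within each sample (y axis, every panel spans the same number of log2 units) in vehicle and DOX; circles, squares and triangles are replicates 1, 2 and 3, and bars are mean ± SD (n = 3). EZH2/SUZ12 is the ratio whose groups do not overlap, and the DOX samples of EZH2/EZH1 and BMI1/PCGF2 spread widely.

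Around the 10 members, 59 further genes in 6 lists were examined, of which 49 reached the expression minimum. On the TPM scale 2 of the 49 were called lower and 0 higher, beside 2.98% and 0.0257% of all genes, and 46 of the 49 had log2 fold changes below 0, where the median of all genes was -0.35. After median-of-ratios scaling 0 were called by limma, 1 was lower (MYSM1) and 1 higher (MYBL2) at an unadjusted p under 0.05 and the fold change, beside 1.15% and 1.18% of all genes, and 20 of the 49 were below 0. Among other accessory subunits of PRC2 (6 of 7 tested, median log2 fold change -0.41), LCOR was called lower. LCOR, a nuclear receptor corepressor whose locus also encodes the PRC2 partner PALI1, fell from 10.0 ± 1.72 to 5.26 ± 2.58 TPM (SD, n = 3 each; log2 fold change -0.89, standard error 0.26, adjusted p = 0.0498 from limma). AEBP2, the zinc finger subunit found with JARID2, had -0.67 (adjusted p = 0.0813 from limma). Of the enzymes that oppose Polycomb marks (9 of 9 tested, median -0.47), MYSM1 was called lower. MYSM1, a deubiquitinase of histone H2A, fell from 12.2 ± 2.77 to 5.92 ± 2.84 TPM (SD, n = 3 each; log2 fold change -0.999, standard error 0.27, adjusted p = 0.0414 from limma), and ASXL2, a partner of the deubiquitinase BAP1, had -0.79 (adjusted p = 0.0707 from limma). MYSM1 and LCOR have AT-rich exons (36.3% and 39.9% G and C), and after median-of-ratios scaling their log2 fold changes were -0.61 and -0.51 (adjusted p = 0.281 for each, limma).

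No gene of the other 4 lists was called. Of the other core and canonical PRC1 genes (7 of 9 tested, median -0.28), PHC3, a Polyhomeotic subunit, had -0.96 (adjusted p = 0.0506 from limma) and SCMH1 had -0.29, which became 0.11 after median-of-ratios scaling. Of the variant PRC1 genes (14 of 15 tested, median -0.35), the PCGF paralog PCGF5 had -0.93 (adjusted p = 0.0568 from limma) and MGA, a subunit of the PCGF6 form, had -0.73 (adjusted p = 0.0827 from limma). Of the activators of EZH2 transcription in the E2F list (5 of 5 tested, median -0.087), E2F3 had -0.51 and TFDP1 had -0.26 (adjusted p = 0.168 and 0.486 from limma), and TFDP1 became 0.17 after scaling. Of the genes known as Polycomb targets (8 of 14 tested, median -0.30), CDH1, which encodes E-cadherin, had -0.64 (adjusted p = 0.0986 from limma) and -0.24 after scaling. When the replicate number was a block, 11 of the 49 tested genes of the 6 lists were called lower on the TPM scale, beside 19.0% of all genes. With the block and either median-of-ratios scaling or the GC and length correction, 0 of them were called. The 11 genes were LCOR, AEBP2, PHC3, PCGF5, MGA, RYBP, MYSM1, ASXL2, USP16, KDM6A and CDH1.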

How the data were processed

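RNA-seq was measured in 6 samples of DU-145/tet-XISTshRNA cells, grouped by the sample labels into vehicle and DOX (3 each). Cells were cultured in triplicate per the labels, and p-values measure the spread between these samples. The authors prepared stranded mRNA libraries, aligned reads with STAR to GRCh38 and deposited TPM per gene symbol. The counting tool, its strand setting and the version of STAR are not given in the sources used here. The methods write a release number after the genome build and do not say whether it is that of the annotation. The methods name Trizol and the labels name a column kit for RNA isolation. A second deposited table holds the authors' own comparison (fold changes and p-values, not used here) and the mean normalized read signal per gene, the only column used. From this signal and TPM, reads per gene were recovered, and 99.0% of 22732 low values were whole within 0.05 of a read (10% by chance). No 2 samples held identical values (0 pairs).

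DOX was compared with vehicle by limma 3.58.1 (R 4.3.3, variance trend) on log2(TPM + 1), which understates fold changes of genes with low TPM, for genes averaging 1 TPM or more, with Benjamini-Hochberg adjustment over all genes. Members under this minimum and ratios were compared by two-sided exact permutation tests. GC content and exonic length came from GENCODE 44 (87.2% of symbols matched), corrected per sample by splines with 5 degrees of freedom. The recovery of reads and the limma fits on TPM, on scaled TPM and with voom were run on simulated reads. The replicate block, the GC and length correction and the permutation tests were not. Tables were handled with Python 3.11.15 and pandas 2.3.3. Alternatives were median-of-ratios scaling, a pseudocount of 0.1, no minimum, the replicate block, the GC and length correction, limma voom on recovered reads, and leaving out each sample. The combinations of median-of-ratios scaling with the GC and length correction and with no minimum, and the levels by GENCODE length, were chosen after seeing the data.

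The labels number the samples of each group 1, 2 and 3 without stating what links equal numbers. Each sample's departure from its group mean was correlated over genes between the samples of a number. The r values were 0.57, 0.24 and 0.21 for TPM, and 0.19, 0.017 and 0.17 with GC and length corrected. The numbers were taken as pairs from these correlations alone. Samples of unlike numbers were not correlated, so the pairing in the block fits and in the comparisons by number is an assumption. The genes named were all 10 members, every called gene of the 6 wider lists with the 2 largest changes of each, and XIST (1 gene that this rule names is not reported here); other genes were chosen after their values were seen. The members and lists were chosen with earlier results of these data known.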

Additional observations from a re-analysis of the deposited data

How the results depend on the processing

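Fold changes of the 8 tested members depended on how samples were scaled. On the TPM scale, the calls over all genes were 348 lower and 3 higher. These counts were 0 and 0 with median-of-ratios scaling (alone, with the replicate block, with GC and length correction, or with no expression minimum), and also with the GC and length correction with or without the block and with no expression minimum. They were 46 lower and 2 higher with a pseudocount of 0.1, and 2217 lower and 15 higher with the replicate block. With voom they were 1 and 0, with voom and the block 273 lower and 161 higher, and 10 and 1 with voom, the block and the GC and length correction. Leaving out each sample gave 0 to 2378 lower and 0 to 23 higher. The highest count came without DOX replicate 2, and 0 were left without vehicle replicate 3, where an unadjusted p under 0.05 with the fold limit left 838 lower and 13 higher. Called members numbered 2 with the replicate block, 0 to 3 with each sample left out (3 without DOX replicate 2), and 0 in all other alternatives. The wider lists had 11 genes called lower with the block, 1 called higher with voom and the block, 2 called lower with voom and the block as on the TPM scale, 0 with all other settings, and 0 to 11 with each sample left out.

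EZH2 became 0.044 with the GC and length correction with or without the block, 0.085 with median-of-ratios scaling added and 0.14 with voom, the block and this correction. EED became 0.16, 0.18 and 0.20, RNF2 0.10, 0.14 and 0.18, and JARID2 0.037, 0.041 and 0.035 in the same fits, and MTF2 became 0.023 in the last. JARID2 was at 0.11 with median-of-ratios scaling with or without the block or a minimum, 0.12 with voom and 0.10 with voom and the block. RING1 was at 0.14, 0.21 and 0.18 in these fits. After GC and length correction the EZH2/EZH1 difference was 0.15 and that of RNF2/RING1 was 0.16. With each sample left out, EZH2/EZH1 ranged from -0.36 to 0.055 (0.041 and 0.055 without DOX replicates 1 and 3), RNF2/RING1 from -0.61 to -0.084, EZH2/SUZ12 from 0.11 to 0.28, SUZ12/EED from -0.32 to -0.12, MTF2/JARID2 from -0.60 to -0.34 and BMI1/PCGF2 from -0.89 to -0.035. Among the members, pairing by the block changed no call other than those of SUZ12 and MTF2. Vehicle replicate 3 had the fewest reads (5453891), with 31 of BMI1 and 3 of CBX8. Tests with 3 samples against 3 do not show that levels were equal.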

Other observations

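MYBL2, a gene of the E2F list, encodes a transcription factor of the cell cycle and was chosen here after its values were seen. MYBL2 was at 19.0, 13.5 and 16.9 TPM with vehicle and at 16.0, 23.3 and 17.2 TPM with DOX, and the groups overlapped. After median-of-ratios scaling every DOX sample was above every vehicle sample (14.1 ± 3.49 against 21.6 ± 2.68 TPM, SD, n = 3 each). In limma voom on the recovered reads with the replicate block MYBL2 was called higher (log2 fold change 0.62, adjusted p = 0.0150), as were 1.38% of all genes. It was not called without the block (0.60, adjusted p = 0.219) or with the block and the GC and length correction (0.29, adjusted p = 0.291), and its exons had 60.6% G and C. The 136 protein-coding genes of the region between HLA-F and DAXX (chr6:29722775-33323016), where RING1 lies, had a median of 0.351 TPM over their mean levels, against 2.21 TPM for the 775 other protein-coding genes of chromosome 6. The lengths behind the TPM of 78 of these genes were a median of 6.82 times their exonic lengths, against 0.996 times elsewhere, and a longer length gives a lower TPM for the same reads.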
